A study of Mus musculus with 4 samples.

Results

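The galectin set held 6 of the 32285 genes in the count tables, namely Lgals1, Lgals3, Lgals7, Lgals8, Lgals9 and Lgals3bp, each matched by its symbol to a single Ensembl identifier. The family was chosen with the high Lgals3 ratio of myelinating Schwann cells already known, so its levels and ratios are given as descriptions. They were followed through 4 single-cell RNA-seq libraries made from the tibialis anterior and gastrocnemius muscles of 2-month-old male mice, with 4 mice pooled per genotype. Control mice (WT) were S100GFP-tg, in which the S100B promoter drives green fluorescent protein in Schwann cells (SCs). The other genotype (Sod1KO) was S100GFP-tg Sod1-/-, so that both carried the reporter and only the latter lacked superoxide dismutase 1, an enzyme that detoxifies superoxide. Each genotype gave 1 library of GFP+ cells and 1 of GFP- cells, and only cells negative for the dead-cell dye propidium iodide were collected. With 1 library per group there is no test and no p-value, and every interval below is an exact 95% interval that covers counting error only.

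Galectins are small proteins that bind galactose-containing sugar chains on glycoproteins. They are made in the cytosol, leave the cell without a signal peptide, and cross-link receptors and matrix at the surface. Lgals1 and Lgals7 encode single-domain galectins, Lgals3 encodes the chimera-type galectin with a long tail that lets it form oligomers, and Lgals8 and Lgals9 encode galectins with a pair of sugar-binding domains. Lgals3bp encodes no galectin but a secreted, heavily glycosylated protein that galectins bind. In peripheral nerve, Lgals1 is known for its part in axon regrowth and Lgals3 for its appearance in macrophages and in SCs that take up myelin after injury, whereas Lgals7 is best known as a galectin of stratified epithelia.

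In the mouse genome (GRCm39, GENCODE vM39), Lgals1 lies at chr15:78810875-78814670 and Lgals3 at chr14:47605208-47623624, both on the plus strand. Lgals7 lies at chr7:28562343-28565722 on the plus strand and Lgals8 at chr13:12454282-12479840 on the minus strand. Lgals9 at chr11:78853800-78875798 and Lgals3bp at chr11:118280716-118292918 share chromosome 11 and the minus strand. The 250 bases before the start of Lgals9 and Lgals3bp (RefSeq, GRCm38.p6) are shown because these genes had the most similar levels across cell types of any pair in the set.
Lgals9, chr11:78984925-78985174, minus strand: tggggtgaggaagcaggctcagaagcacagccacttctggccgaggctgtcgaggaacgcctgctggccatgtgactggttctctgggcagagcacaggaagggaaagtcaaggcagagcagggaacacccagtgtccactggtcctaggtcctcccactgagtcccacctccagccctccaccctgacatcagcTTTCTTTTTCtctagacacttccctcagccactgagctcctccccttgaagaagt
Lgals3bp, chr11:118401960-118402209, minus strand: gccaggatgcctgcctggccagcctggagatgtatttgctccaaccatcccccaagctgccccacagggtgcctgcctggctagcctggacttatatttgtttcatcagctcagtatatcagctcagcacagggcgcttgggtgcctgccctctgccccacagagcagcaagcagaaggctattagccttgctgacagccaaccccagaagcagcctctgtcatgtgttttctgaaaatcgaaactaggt
The capitals in the Lgals9 sequence mark a match, on the opposite strand, to the core of the interferon-stimulated response element (GAAA, any 2 bases, GAAA), whose first base lies 55 bases before the start. This core was present in 2.98% of 32851 promoters of the same length and was not found in the Lgals3bp window. Searched on both strands, AP-1 (TGANTCA, in 6.75% of promoters) and the TATA box (TATAAA, in 12.4%) were found in neither. A match of letters is not a binding site.

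The libraries held between 2052 (WT GFP-) and 7267 (Sod1KO GFP+) barcodes, of which 1638 to 5925 remained after filters, and pairs of libraries shared 1 to 13 barcodes. Median depth of the kept cells was lowest in WT GFP- (8019.5 unique molecular identifiers, UMIs) and highest in Sod1KO GFP- (14676). Cells were clustered without the 6 genes and clusters were called "X-like" only where listed markers held, which left from 19.7% (WT GFP+) to 57.2% (WT GFP-) of the cells unnamed. The myelinating SC (mSC-like) class had 1075 WT and 657 Sod1KO cells and the terminal or other nonmyelinating SC (tSC-like) class 380 and 887, all counts from GFP+ libraries. Levels are given as UMIs per 1000000 UMIs of a class (CPM). Sod1 itself was at 91.1 CPM in WT GFP+ and 98.3 CPM in Sod1KO GFP+. Since 3' tags can lie outside a deleted part of the gene, this does not check the genotype, and Sod1KO below means the library labelled so. In several classes the hemoglobin and other erythroid genes were higher in Sod1KO, for example 15.8 against 1022 CPM in tSC-like cells, and their part in the results was not tested.

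Lgals1 was by far the most abundant member, at 1399 CPM in WT GFP+ cells, and Lgals3 followed at 126. Lgals9 stood at 35.2, Lgals8 at 30.5, Lgals3bp at 18.7 and Lgals7 at 15.6. Because a UMI marks the 3' end of a molecule, CPM were not divided by gene length. The order differed in the GFP- sort, where Lgals9 (128 CPM in WT) stood above Lgals3 (30.9), and Lgals7 was close to absent at 3 UMIs in all. Against WT, the Sod1KO GFP+ library was higher for Lgals7 (91.0 CPM) and Lgals3 (180.3), whereas Lgals8 (28.4) and Lgals9 (36.8) lay near their WT values. Values of a whole library also depend on its mix of cells, which differed between the genotypes as given above.

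**Figure D1:**
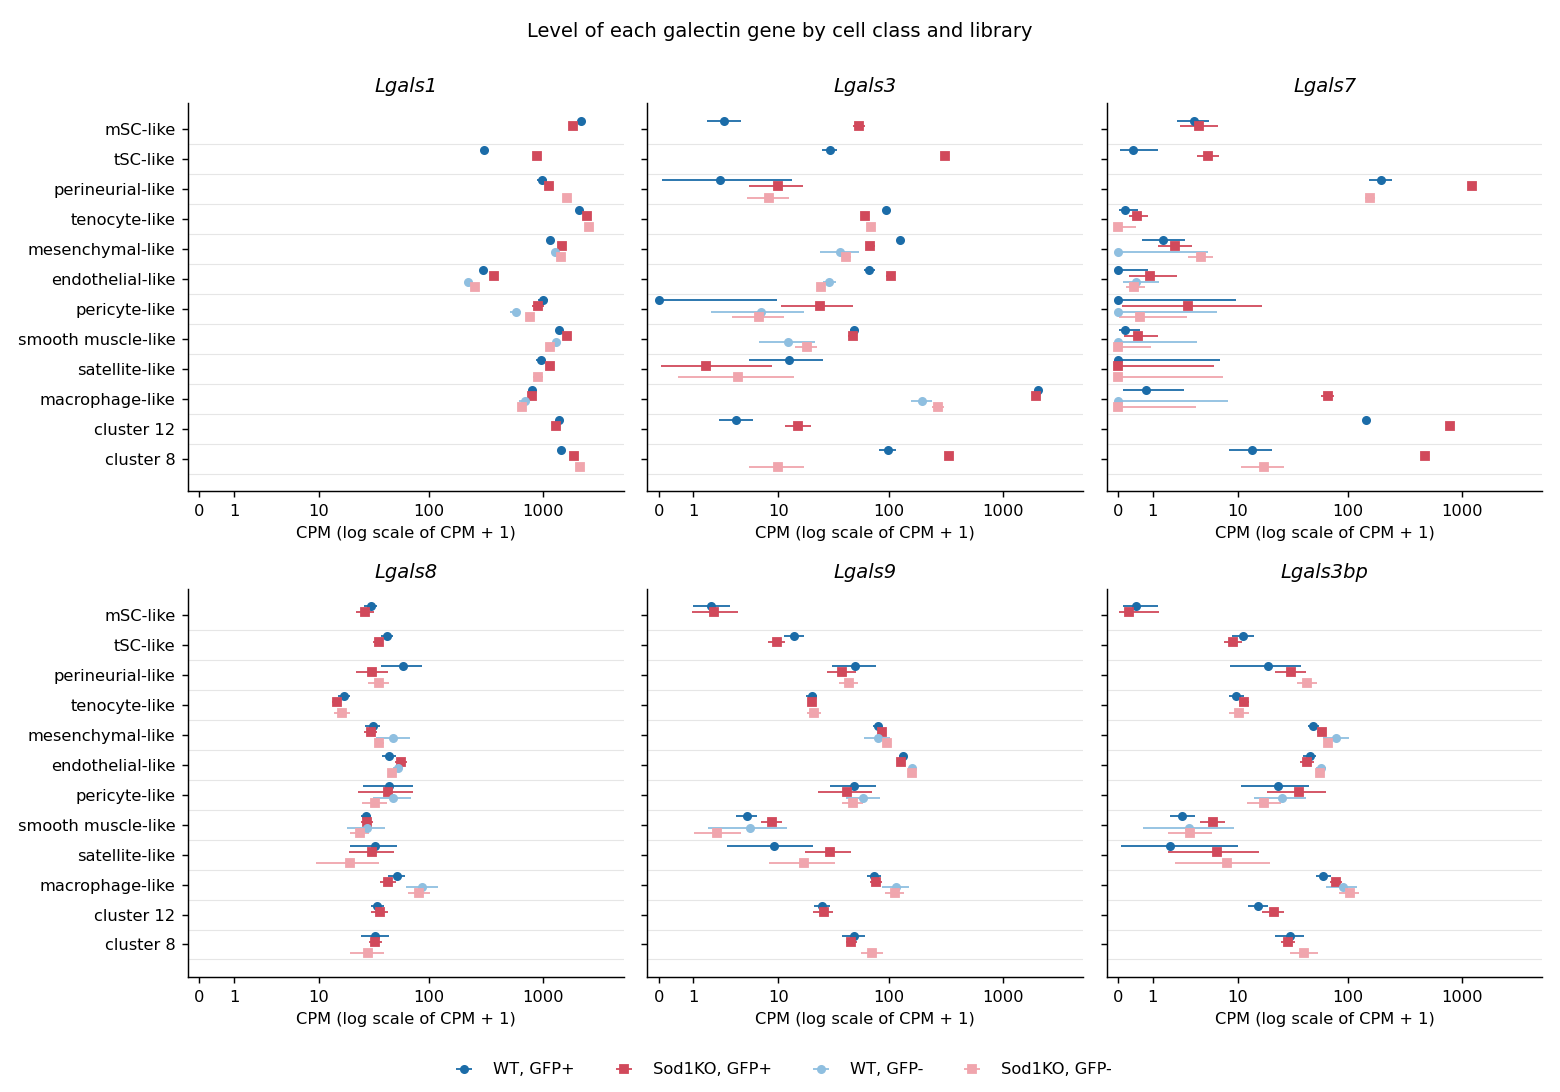
CPM of each galectin gene (x axis, log scale of CPM + 1) in the 10 classes named in the GFP+ sort and clusters 8 and 12 (rows) by library (colors), with exact 95% Poisson intervals; groups under 20 cells are not drawn. Among these rows, Lgals1 was lowest in endothelial-like and WT tSC-like cells, Lgals3 was highest in GFP+ macrophage-like cells (2028 and 1966 CPM), and Lgals7 was above 100 CPM only in perineurial-like cells, cluster 12 and cluster 8.

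Lgals3 was higher in Sod1KO in both SC classes, and in both the ratio rested on few cells. In tSC-like cells it was detected with 178 UMIs in WT and 3382 in Sod1KO, or 29.9 CPM (25.7 to 34.7) against 311 CPM (301 to 322). The log2 ratio was 3.38 (3.16 to 3.60), a 10.4-fold difference. The share of cells with an Lgals3 UMI differed by less than the level. Unthinned it was 16.1% (12.5 to 20.1) in WT and 28.1% (25.1 to 31.2) in Sod1KO. After every cell was thinned to 2000 UMIs it was 6.40% and 12.4%, and at 1000 UMIs it was 4.75% (2.84 to 7.40) and 6.10% (4.62 to 7.89), with overlapping intervals. In mSC-like cells of the same libraries the share at 1000 UMIs was 0.466% and 0.457%. Single cells differed widely in how much they carried. Cells with 10 or more Lgals3 UMIs numbered 2 in WT and 33 in Sod1KO, and cells with 50 or more numbered 0 and 15. Summed macrophage markers, nearly all Lyz2, moved the other way, from 4694 CPM in WT to 424 CPM in Sod1KO. Leaving out cells with any macrophage marker UMI, Lyz2 included, gave a log2 ratio of 1.06. Leaving out cells with a UMI of such a marker other than Lyz2 gave 31.3 CPM and 232 CPM (log2 2.89, 2.66 to 3.12). It took the Sod1KO UMIs from 3382 to 2200.

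The high cells were found together when SCs of the GFP+ libraries were clustered on their own. Subcluster 5 held 75 cells, all from Sod1KO, 74 of them tSC-like and 1 mSC-like. It made up 8.34% of Sod1KO tSC-like cells and 86.2% of their Lgals3 UMIs. Lgals3 stood at 2896 CPM in it, although 24 of the 75 cells had no Lgals3 UMI, the median cell had 3, and the highest had 429. Its thinned share was 37.3%. Depth was similar to that of the rest, with a median of 11254 UMIs per cell against 9404 in other Sod1KO tSC-like cells. Because Lgals3 was left out of the genes used for clustering, its place among the leading genes of the subcluster was not imposed, although genes that vary with it were used.

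Subcluster 5 was led by Olig1, an oligodendrocyte-lineage transcription factor, Syt4, a synaptotagmin, and Tmem158, followed by Lgals3, the secreted factors Stc2 and Ucn2, and Ngfr, the low-affinity neurotrophin receptor that nonmyelinating and injured SCs carry. Ngfr stood at 538 CPM and the growth-cone gene Gap43 at 611, and all 6 general SC markers were detected at 3390.4 CPM summed. Macrophage genes were near absent: 6 of 10 markers were detected with 30 UMIs in all, of which 19 were Lyz2, a gene that tSC-like cells of subcluster 2 also carried (31004 of its 31044 macrophage-list UMIs). C1qa and C1qc had 1 UMI each, C1qb 2, Csf1r 3 and Cd68 4, and Adgre1 and Mrc1 had 0. In the 15 tSC-like cells with 50 or more Lgals3 UMIs, Ngfr was detected in 15 and Sox10 in 13, while C1qa and Adgre1 were detected in 0 and Csf1r in 1. These 15 cells were deeper than the rest of the class, at 10640 to 54726 UMIs (median 18369). Subcluster 5 and the genes read in it were singled out after their values were seen.

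**Figure D2:**
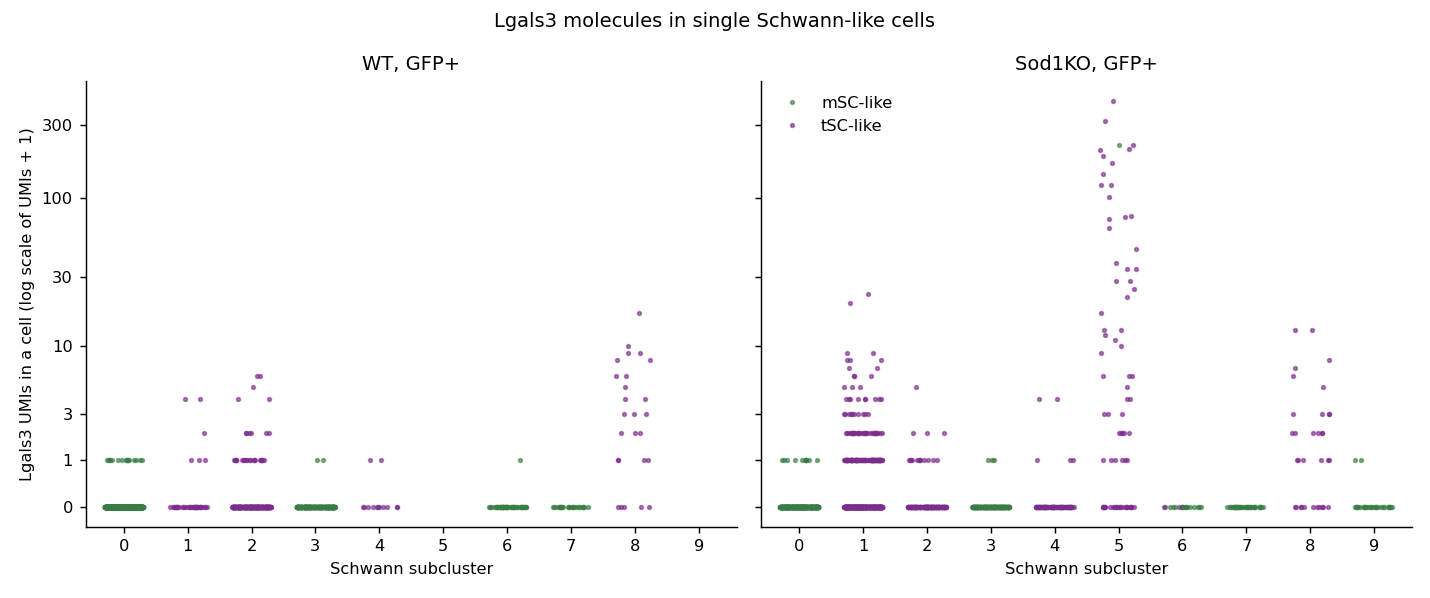
Lgals3 UMIs in each SC-like cell (y axis, log scale of UMIs + 1) by SC subcluster (x axis) in the WT and Sod1KO GFP+ libraries; each point is 1 cell, colored by class (mSC-like or tSC-like) and spread sideways at random. The cells of subcluster 5, all Sod1KO, reached 429 UMIs, and the 1 mSC-like cell among them carried 224.

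Outside subcluster 5 the genotypes were much closer. Without it, Lgals3 in tSC-like cells was 29.9 CPM in WT and 47.7 CPM in Sod1KO, a log2 ratio of 0.67 (0.42 to 0.93), with thinned shares of 4.75% and 3.33%. The classes differed in makeup, since cluster 11 held 305 of 380 WT cells and cluster 7 held 592 of 887 Sod1KO cells. Within cluster 11, led by Bche and Ajap1, Lgals3 was 11.1 CPM in WT and 10.9 CPM in Sod1KO. Within cluster 7, led by Ucn2, Olig1 and Btc, it was 234 CPM in 62 WT cells and 447 CPM in 592 Sod1KO cells with subcluster 5 included, a log2 ratio of 0.93 (0.66 to 1.21), whereas the thinned share of cells with an Lgals3 UMI was 22.6% in WT and 8.63% in Sod1KO. WT cells too had a subcluster with Lgals3, since 105 of the 178 WT UMIs lay in subcluster 8. There, in cells with Gfra3, a receptor of the GDNF family, and the sodium channel gene Scn7a, 26 WT cells had 105 UMIs (459.8 CPM) and 33 Sod1KO cells had 82 UMIs (283 CPM). The log2 ratio in subcluster 8 was -0.70 (-1.13 to -0.27), opposite in direction to that of subcluster 1 (0.98, 0.19 to 1.91), in which Lgals3 was 25.8 CPM in 41 WT cells and 51.0 CPM in 548 Sod1KO cells.

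In mSC-like cells, Lgals3 was at 2.68 CPM in WT (19 UMIs) and 55.0 CPM in Sod1KO (242 UMIs), a log2 ratio of 4.36 (3.68 to 5.11). Of the 242 UMIs, 224 came from 1 cell, the mSC-like cell of subcluster 5. That cell had 26445 UMIs, with 12 of Sox10 and 9 of Ngfr, and 0 of C1qa, Csf1r, Adgre1, Cd68 and Lyz2. With the top cell left out of each library, 18 UMIs remained in each, or 2.54 CPM in WT and 4.11 CPM in Sod1KO, and the log2 ratio was 0.69 (-0.33 to 1.72). Over the whole class, the thinned share of mSC-like cells with an Lgals3 UMI was 0.466% (0.151 to 1.08) in WT and 0.457% (0.0943 to 1.33) in Sod1KO. Without the top cells this share was 0.466% and 0.305%. At this depth no difference between the genotypes was detectable in the remaining 1074 and 656 cells.

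Macrophage-like cells of the GFP+ libraries held the highest Lgals3 level of any named class, with overlapping intervals in the genotypes: 2028 CPM (1974 to 2083) in 133 WT cells and 1966 CPM (1918 to 2015) in 215 Sod1KO cells, with a log2 ratio of -0.04 (-0.10 to 0.01). They contributed 59.1% of the Lgals3 UMIs of the WT GFP+ library from 2.92% of its cells, and 39.2% from 3.63% of cells in Sod1KO. Single cells differed widely here too, as 5 WT and 6 Sod1KO cells held at least 50% of the UMIs, and the top cells carried 844 and 845. The sort made a larger difference than the genotype. In GFP- macrophage-like cells Lgals3 was 197 CPM (158 to 242) in WT and 274 CPM (242 to 309) in Sod1KO, so that GFP+ cells stood 10.3-fold and 7.18-fold higher. Thinned shares of positive cells differed less. They were 38.2% (29.8 to 47.1) in GFP+ and 21.7% (7.46 to 43.7) in GFP- of WT, and 38.3% and 16.7% in Sod1KO. Cells with 50 or more Lgals3 UMIs numbered 18 in WT GFP+, 21 in Sod1KO GFP+ and 0 in both GFP- libraries. The GFP- classes held 24 and 78 cells, and the log2 genotype ratio in them was 0.48 (0.13 to 0.84), beside a median of -0.15 over all genes of that class.

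In stromal and vascular classes Lgals3 was lower than in macrophage-like cells. Mesenchymal-like cells had 127 CPM in WT and 69.1 CPM in Sod1KO GFP+ (log2 -0.88, -1.04 to -0.72). The share of cells with an Lgals3 UMI was alike, at 6.72% and 6.33% after thinning. In WT 16 of 524 cells had 10 or more UMIs and held 51.1% of the UMIs. In Sod1KO 4 of 793 did, with 21.8%. The level difference was uneven within the class: cluster 4, led by Myoc and Fst, had 201 CPM in WT and 77.0 CPM in Sod1KO, whereas cluster 5, led by Inmt and Gdf10, had 80.9 and 73.5 CPM. In the GFP- sort the same class had 37.3 CPM in WT and 42.3 CPM in Sod1KO. Tenocyte-like cells had 94.7 CPM in WT GFP+, 62.1 CPM in Sod1KO GFP+ and 69.3 CPM in Sod1KO GFP-, and WT GFP- had too few of them to compare. Smooth muscle-like cells of the GFP+ sort had 49.5 and 47.9 CPM. Pericyte-like cells had 0 UMIs in WT GFP+ and 24.5 CPM (8 UMIs) in Sod1KO GFP+. For the WT value a floor of 3 UMIs corresponds to 7.85 CPM, and the 95% interval reaches 9.66 CPM.

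Endothelial-like cells carried Lgals3 mainly in the clusters with venular and activated-vessel genes. Cluster 20, with the selectin genes Sele and Selp, the chemokine-binding receptor Ackr1 and Vwf, had 214 CPM in 43 WT cells and 274 CPM in 49 Sod1KO cells. Cluster 23, with Esm1, a gene of sprouting endothelium, had 104 and 158 CPM. The capillary-type cluster 1 had 15.5 CPM in WT and 6.78 CPM in Sod1KO, and cluster 9, with the arterial genes Gja5 and Bmx, had 14.7 and 20.5 CPM. For the class as a whole Lgals3 was 67.5 CPM (60.2 to 75.4) in WT GFP+ and 104 CPM (94.7 to 114) in Sod1KO GFP+, a log2 ratio of 0.62 (0.41 to 0.83). In GFP- endothelial-like cells it was 29.7 CPM in WT and 25.1 CPM in Sod1KO. Summed macrophage markers did not move with the GFP+ ratio (28.5 and 29.4 CPM), whereas erythroid genes did (2523 and 11267 CPM), and their part in the result was not tested.

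Cluster 8, which passed no naming rule and whose leading genes were Smim41, Saa1, Gria1 and Cxcl14, also held cells with high Lgals3. It had 87 WT and 450 Sod1KO cells in the GFP+ sort, with 97.8 CPM and 342 CPM of Lgals3 (log2 1.80, 1.56 to 2.06). Of the 144 WT UMIs, 98 came from 1 cell. Of the 2483 Sod1KO UMIs, 806 came from 1 cell, and 4 of 450 cells held at least 50% of them. Without the top cell of each library the values were 32.6 and 234 CPM (log2 2.84, 2.42 to 3.30). The thinned share of cells with an Lgals3 UMI was 3.45% (0.717 to 9.75) in WT and 5.63% (3.68 to 8.20) in Sod1KO, with overlapping intervals. Leaving out cells with a macrophage marker UMI other than Lyz2 cut the Sod1KO UMIs from 2483 to 1083. The values were then 36.6 CPM in WT and 179 CPM in Sod1KO (log2 2.29, 1.87 to 2.75). All 11 Sod1KO cells with 50 or more Lgals3 UMIs had Ngfr and Col1a1 UMIs and 10 had Sox10, whereas C1qa was detected in 1 and Csf1r in 0. They held 23861 to 96749 UMIs each (median 37529), and whether such barcodes hold more than 1 cell was not tested. The 87 cells of cluster 8 in Sod1KO GFP- had 9.99 CPM.

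Lgals7 was higher in Sod1KO in perineurial-like cells, which form the barrier sheath around nerve fascicles, and here the ratio did not rest on a single cell. In perineurial-like cells of the GFP+ sort it was 194 CPM (154 to 241) in 45 WT cells and 1228 CPM (1167 to 1292) in 89 Sod1KO cells, a log2 ratio of 2.66 (2.34 to 3.01) and a fold of 6.33. Both the number of positive cells and the amount per cell were higher. The thinned share with an Lgals7 UMI was 13.3% (5.05 to 26.8) in WT and 49.4% (38.7 to 60.2) in Sod1KO. In endothelial-like cells of the same sort it was 0 of 305 cells in WT (up to 1.20%) and 0.330% in Sod1KO. Cells with 10 or more UMIs numbered 3 in WT and 38 in Sod1KO, and leaving out the top cell of each library gave a log2 ratio of 2.76 (2.40 to 3.14). The summed perineurial markers were alike, at 5105 CPM in WT and 4773 CPM in Sod1KO. Summed macrophage markers were 21.8 CPM in WT (4 of 10 detected) and 150.1 CPM in Sod1KO (8 of 10), and without cells carrying any of them other than Lyz2, Lgals7 was 194 CPM and 1138 CPM (log2 2.56, 2.20 to 2.93).

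The sort mattered for Lgals7 as well. In 112 perineurial-like cells of the Sod1KO GFP- library it was 157 CPM with a thinned share of 7.14%, so that GFP+ cells of the same genotype stood 7.83-fold higher. WT GFP- held only 5 perineurial-like cells, and no genotype ratio could be given in that sort.

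Clusters 12 and 8 showed the same direction. Cluster 12, whose cells had mSC markers together with the perineurial genes Cldn1, Tenm2 and Moxd1 and which was left unnamed, had 145 CPM in 306 WT cells and 778 CPM in 175 Sod1KO cells (log2 2.43, 2.32 to 2.54), with thinned shares of 9.80% and 30.3%. Cluster 8 had 13.6 CPM in 87 WT cells and 471 CPM in 450 Sod1KO cells (log2 5.12, 4.49 to 5.83), with thinned shares of 1.15% and 17.8%. These clusters also supplied most molecules: cluster 12 held 76.6% of the Lgals7 UMIs of WT GFP+, and in Sod1KO GFP+ cluster 8 held 42.0%, cluster 12 34.5% and perineurial-like cells 18.4%. Cluster 8 itself had more summed perineurial markers in Sod1KO (1343 CPM) than in WT (459 CPM), whereas cluster 12 had 3197 CPM in WT and 3264 CPM in Sod1KO. The part of this difference in the cluster 8 ratio was not tested.

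**Figure D3:**
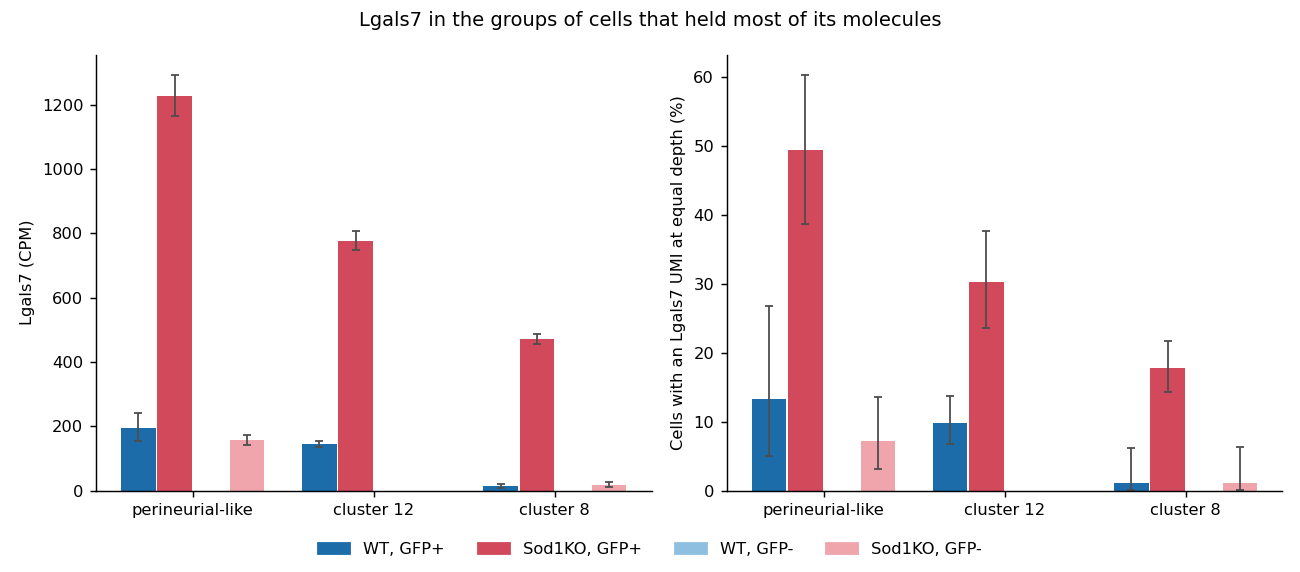
Lgals7 in perineurial-like cells, cluster 12 and cluster 8 by library, as CPM with exact 95% Poisson intervals (left) and as the share of cells with an Lgals7 UMI after thinning to 1000 UMIs with exact binomial intervals (right). The Sod1KO GFP+ bar was the highest in each group, from 471 to 1228 CPM; groups under 20 cells have no bar.

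The Lgals7 of these cells did not come with the basal keratin genes Krt5 and Krt14. Of the keratinocyte markers, Krt5, Krt14 and Dsp had 0 UMIs in perineurial-like cells, cluster 12 and cluster 8 of both GFP+ libraries, and most UMIs of the list were of Perp, a desmosomal gene (76 in WT and 135 in Sod1KO perineurial-like cells). In all 8 perineurial-like, 14 cluster 12 and 19 cluster 8 cells of Sod1KO GFP+ with 50 or more Lgals7 UMIs, Krt5 was not detected. Cldn1, a tight-junction gene, was detected in 8, 14 and 18 of them, and Stra6, the receptor for retinol-binding protein, in 8, 13 and 18. Lgals7 and basal keratins were found together in 1 cell, in the muscle fiber-rich cluster 16 of WT GFP+, which held 115 of that group's 117 Lgals7 UMIs beside 61 of Krt5 and 25 of Krt14. These cells were looked at after their values were seen.

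In the other named classes Lgals7 was sparse, and ratios past 2-fold rested on few cells. The macrophage-like ratio (log2 6.45, 4.58 to 9.50, 0.758 CPM in WT and 66.2 CPM in Sod1KO) rested on 1 cell with 207 of the 213 Sod1KO UMIs, which had 0 Csf1r, 42 Stra6 and 9 Cldn1 UMIs. Without it 6 UMIs were left. In tSC-like cells 2 UMIs in WT and 55 in Sod1KO gave a log2 ratio of 3.91 (1.99 to 6.99), and 2 of 887 Sod1KO cells held at least 50% of them. Without the top cell of each library 0 and 36 UMIs were left. In mSC-like cells Lgals7 was 3.53 CPM in WT and 4.09 CPM in Sod1KO. It was higher in SC subcluster 6, led by Krt19 and Lypd2, with 63 mSC-like and 2 tSC-like cells. There it was 49.9 CPM in WT and 162 CPM in Sod1KO (log2 1.70, 0.81 to 2.61), from 20 and 27 UMIs. Satellite-like cells had 0 UMIs in both GFP+ libraries, which allows up to 5.46 and 4.70 CPM.

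Lgals1 varied over a narrower range and was high in matrix-producing and mSC-like cells. In WT GFP+ it was 2119 CPM (2085 to 2153) in mSC-like and 2045 CPM (2023 to 2068) in tenocyte-like cells, with separate intervals. Smooth muscle-like cells (1362 CPM) and cluster 12 (1361) did not differ beyond counting error, and mesenchymal-like cells followed at 1141 CPM. Pericyte-like (989.5), perineurial-like (977) and satellite-like cells (949.6) had overlapping intervals, and macrophage-like cells had 798 CPM. At the lower end, tSC-like cells (300.0 CPM, 286 to 314) and endothelial-like cells (296 CPM, 281 to 313) could not be ordered. Lymphatic endothelial-like cells of Sod1KO GFP- had 72.7 CPM and a thinned share of 4.81%, whereas the share in mSC-like cells of WT GFP+ was 78.6%.

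The tSC-like class was the only named class in which Lgals1 differed by 2-fold or more between genotypes. It went from 300.0 CPM in WT to 872 CPM (855 to 890.1) in Sod1KO, a log2 ratio of 1.54 (1.47 to 1.61), and the thinned share of positive cells from 22.4% (18.3 to 27.0) to 38.4% (35.2 to 41.7). Unlike Lgals3, it was not carried by few cells: without subcluster 5 it was 300.0 and 708 CPM (log2 1.24, 1.16 to 1.32). The clusters themselves differed, since in WT Lgals1 was 754 CPM in cluster 7 and 261 CPM in cluster 11, and the part of the makeup of the class in the ratio was not tested. Within cluster 11 Lgals1 was 261 CPM in WT and 409 CPM in Sod1KO (log2 0.65, 0.54 to 0.76), and within cluster 7, subcluster 5 included, it was 754 and 1102 CPM (log2 0.55, 0.40 to 0.70). Across subclusters the ratio was 0.70 in subcluster 1, 0.36 in subcluster 2 and 0.53 in subcluster 8, and Lgals1 stood highest, at 2393 CPM, in the Sod1KO cells of subcluster 5.

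In mSC-like cells Lgals1 was lower in Sod1KO, at 1804 CPM (1765 to 1844) against 2119 CPM in WT, a log2 ratio of -0.23 (-0.27 to -0.19). In the other GFP+ classes the log2 ratio ran from -0.13 in pericyte-like cells to 0.34 in mesenchymal-like cells, with a median of 0.23 over all 10 classes. The GFP- values were 0.19 in endothelial-like, 0.18 in mesenchymal-like and 0.42 in pericyte-like cells, and -0.17 in smooth muscle-like cells. Perineurial-like cells of Sod1KO had 1124 CPM in GFP+ and 1624 CPM in GFP-, the reverse of the order of Lgals7 in the same cells.

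**Figure D4:**
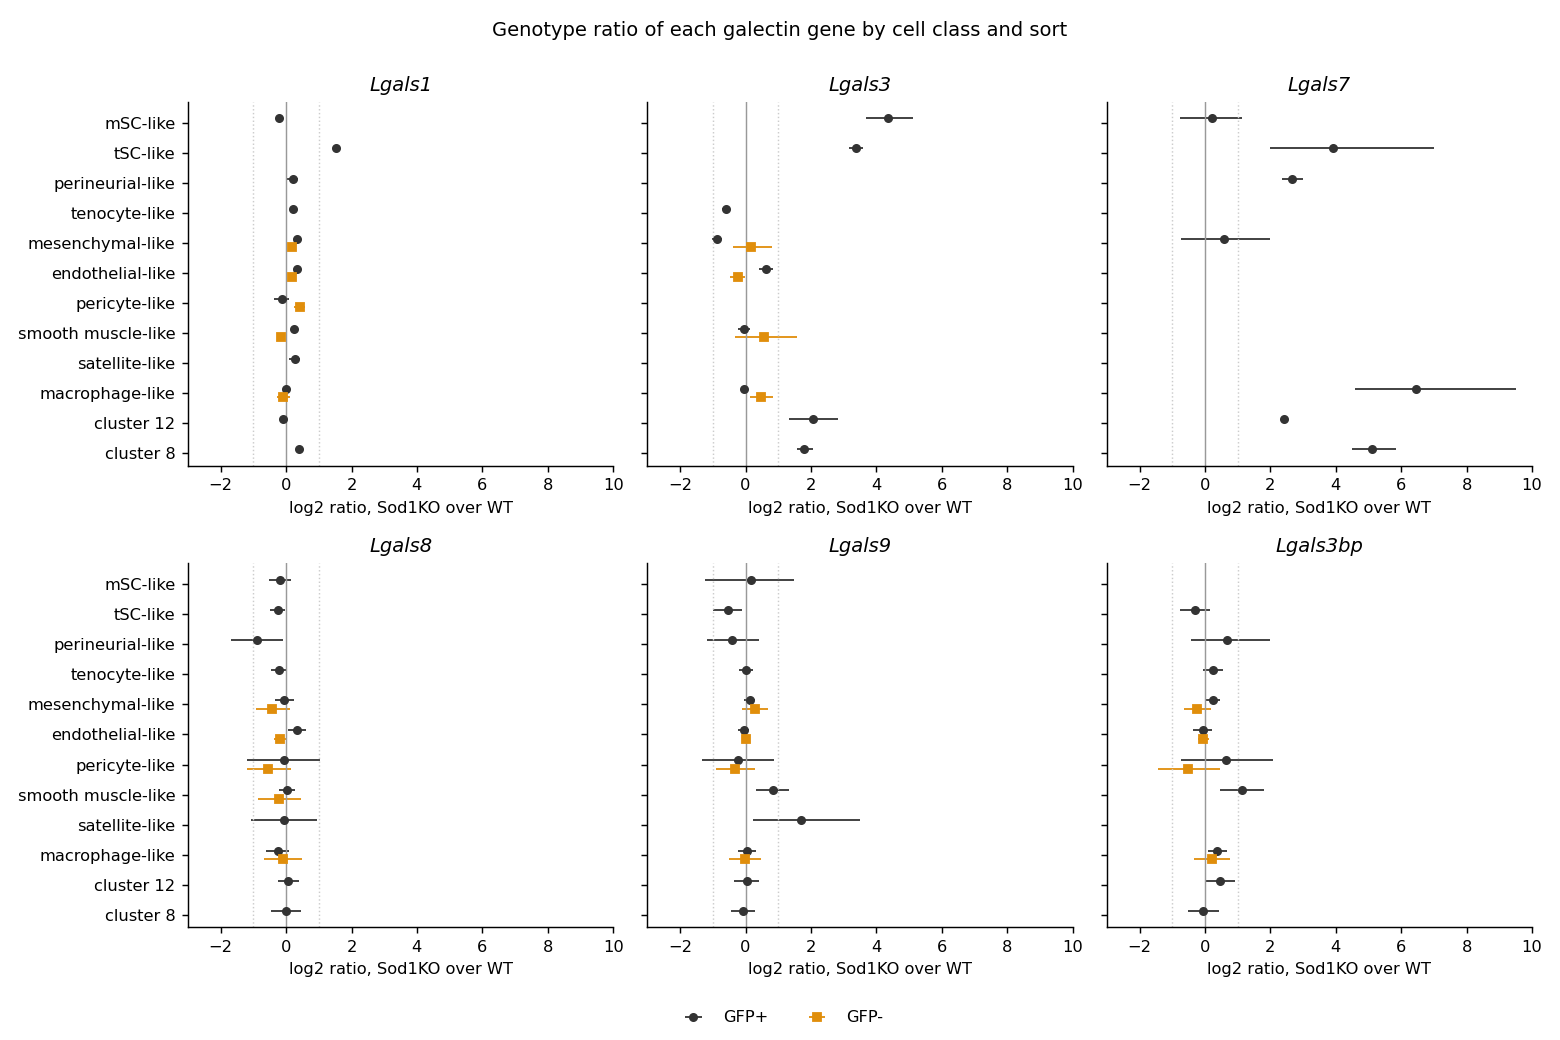
Log2 ratio of CPM, Sod1KO over WT (x axis), of each galectin gene in the 10 classes named in the GFP+ sort and clusters 8 and 12 (rows) by sort (colors), with exact 95% intervals for counting error; dotted lines mark a 2-fold difference, and pairs under 20 UMIs in all or with 0 UMIs in a library are not drawn. In these rows the ratios past 2-fold lie on the higher side and include Lgals3 in mSC-like (4.36) and tSC-like cells (3.38) and Lgals7 in perineurial-like cells (2.66). The Lgals3 ratio was 0.69 (-0.33 to 1.72) in mSC-like cells without the top cell of each library and 0.67 in tSC-like cells without subcluster 5.

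Lgals8, whose product senses damaged endosomes and lysosomes, was the most even member. Among the named classes it ranged from 14.7 CPM in Sod1KO GFP+ tenocyte-like cells to 87.3 CPM in WT GFP- macrophage-like cells. Tenocyte-like cells had the lowest level of the named classes in each library where they could be read (17.1, 14.7 and 16.6 CPM). mSC-like cells had 30.3 CPM in WT and 26.8 CPM in Sod1KO, and tSC-like cells 42.2 and 35.5 CPM (log2 -0.25, -0.48 to -0.02). The lowest ratio was that of perineurial-like cells, at 58.2 CPM in WT and 31.2 CPM in Sod1KO (log2 -0.90, -1.68 to -0.10), from 24 and 38 UMIs. For Lgals8, 0 of the 10 GFP+ classes passed a 2-fold difference in either direction.

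Lgals9, known from endothelium and immune cells and as an interferon-induced gene, was highest in endothelial-like cells, at 134 CPM in WT and 129 CPM in Sod1KO of the GFP+ sort and 161 CPM in both GFP- libraries. The GFP- log2 ratio was 0.00 (-0.09 to 0.10), from 1120 and 3812 UMIs. Mesenchymal-like cells had 80.2 and 87.7 CPM in the GFP+ sort, and macrophage-like cells 75.0 and 77.7 CPM, with overlapping intervals between the classes in WT. SC classes were near the bottom: tSC-like cells had 14.1 CPM in WT and 9.65 CPM in Sod1KO (log2 -0.55, -0.98 to -0.12), and mSC-like cells 1.84 and 2.04 CPM. In satellite-like cells 5 UMIs in WT and 19 in Sod1KO gave a log2 ratio of 1.71 (0.24 to 3.49), and without the top cell of each library it was 1.39 (-0.34 to 3.48).

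Lgals3bp broadly followed Lgals9 across cell types, but the order of the highest classes differed. In WT GFP+, Lgals9 was 134 CPM in endothelial-like, 80.2 CPM in mesenchymal-like and 75.0 CPM in macrophage-like cells, whereas Lgals3bp had the reverse order. In macrophage-like cells it was 60.6 CPM in WT and 78.9 CPM in Sod1KO of the GFP+ sort, and 89.5 CPM and 103 CPM in the GFP- sort. Mesenchymal-like and endothelial-like cells of WT GFP+ had 49.3 and 45.9 CPM, and mSC-like cells had 3 UMIs in WT and 1 in Sod1KO, at or under the floor. Over 27 combinations of class and library with at least 50 cells, the Pearson correlation of log2(CPM + 1) between Lgals9 and Lgals3bp was 0.93. The other pairs of members ran from -0.74 (Lgals1 and Lgals8) to 0.58 (Lgals8 and Lgals9), and Lgals1 and Lgals3 had 0.02. These points share libraries and classes and are no independent samples. In smooth muscle-like cells Lgals3bp was 2.60 CPM in WT and 5.67 CPM in Sod1KO GFP+ (log2 1.12, 0.47 to 1.80), beside summed macrophage markers of 13.8 and 33.2 CPM, whose part in the result was not tested. Within the clusters of this class the ratio stayed under 2-fold. Cluster 3 had 1.28 and 1.77 CPM (log2 0.46, -0.71 to 1.61), and cluster 24 had 19.3 and 31.2 CPM (0.69, -0.16 to 1.58). Cluster 3 held 555 WT and 394 Sod1KO cells and cluster 24 held 56 and 80. The part of this makeup in the ratio was not tested.

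**Figure D5:**
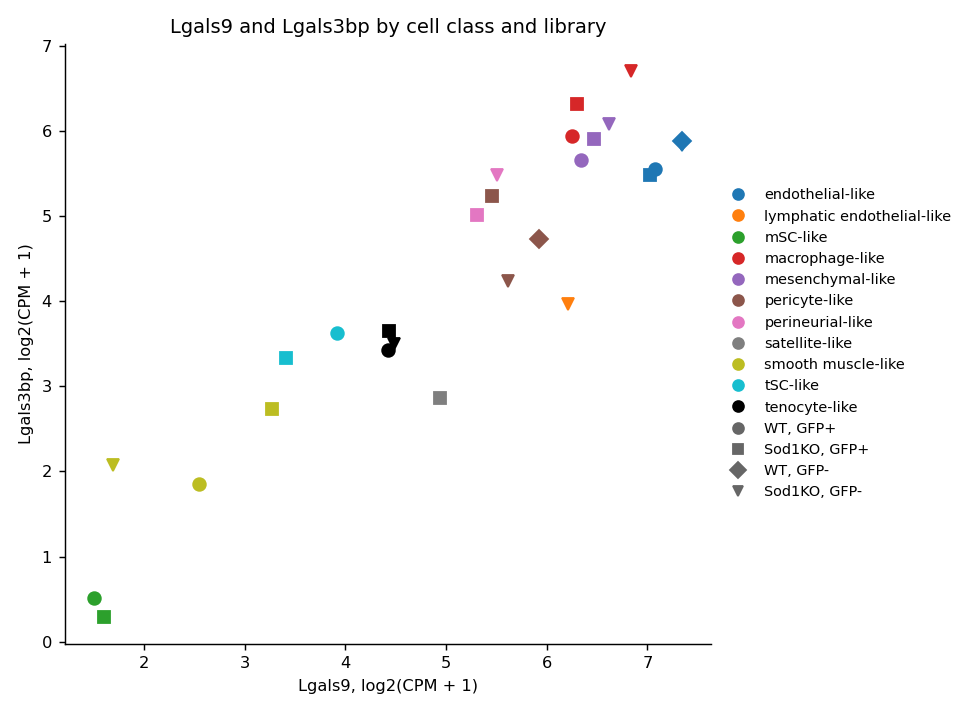
Lgals3bp against Lgals9, both as log2(CPM + 1), for 27 combinations of cell class (colors) and library (symbols) with at least 50 cells. The levels ran together from mSC-like cells at the lower left to endothelial-like, mesenchymal-like and macrophage-like cells at the upper right (r = 0.93).

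The genes most like each member over the same 27 points were, for Lgals1, Ogn (osteoglycin, r = 0.86), Mlec (0.84) and Tmem258 (0.82). For Lgals3 they were Mapkapk3 (0.80), the NADPH oxidase subunit Cyba (0.79) and the lysosomal gene Grn (0.78). For Lgals7 they were Stra6 (0.95), Cldn1 (0.87) and Foxd1 (0.86), and for Lgals8 Zbtb7a (0.93), Tcn2 (0.91) and Pcf11 (0.90). Hpcal1 (0.94) and Ly6e (0.94) stood beside Lgals3bp for Lgals9, and Shisa5 (0.93) and Hpcal1 (0.93) beside Lgals9 for Lgals3bp.

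Counted over all named classes with 20 UMIs or more in both libraries together, 8 of 50 pairs of member and class were at least 2-fold higher in Sod1KO GFP+ and 0 were at least 2-fold lower. Over all genes in the same classes 4.25% of pairs were past this fold upward and 2.78% downward. The 8 were Lgals3 and Lgals7 in tSC-like cells, Lgals1 in tSC-like, Lgals3 in mSC-like, Lgals7 in perineurial-like and macrophage-like, Lgals9 in satellite-like and Lgals3bp in smooth muscle-like cells. The ratio of Lgals3 in mSC-like cells was known when the family was chosen, so its place among the 8 was set in advance. Others entered the count mainly through the library in which they were higher, such as Lgals7 in macrophage-like and tSC-like cells, each with 2 UMIs in WT. The count is therefore a description and no measure of an excess over all genes. With the top cell of each library left out, 6 of the 50 pairs were past the fold, among them Lgals9 in satellite-like cells with 4 and 12 UMIs, fewer than the 20 asked of the full data. In the GFP- sort 0 of 23 pairs passed it in either direction, beside 6.43% upward and 4.10% downward over all genes.

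Genes that make or bear the sugar chains galectins bind were read in the SC classes from listed genes. In mSC-like cells, 1 of 13 glycoprotein partners was past 2-fold, Cd44, the hyaluronan receptor, which was 5.93 CPM in WT and 17.7 CPM in Sod1KO (log2 1.58, 1.02 to 2.16). Of 14 glycan enzymes 1 was lower, Gcnt1, which branches O-glycans, at 7.48 and 1.59 CPM (log2 -2.23, -3.62 to -1.09). Mgat5, which makes the branched N-glycans favored by galectins, was 28.7 and 39.1 CPM, and St6gal1, whose sialic acid cap hinders galectin binding, was 433 and 560.3 CPM. Over all genes of the class 1.73% were past the fold upward and 2.23% downward.

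In tSC-like cells, 3 of 14 glycoprotein partners were at least 2-fold lower in Sod1KO. They were the endocytic receptor Lrp1 (290.1 CPM in WT, 133 in Sod1KO), Mertk, a receptor for uptake of dying cells and myelin (178 and 87.5 CPM), and Kdr (16.1 and 4.14 CPM). Of 15 glycan enzymes, Mgat3, which adds the bisecting N-glycan branch, was higher (5.04 and 15.8 CPM), whereas Gcnt2 (691 and 343 CPM) and Mgat4a (6.39 and 3.03 CPM) were lower. Mgat5 (28.8 and 23.7 CPM) and St6gal1 (426 and 430.4 CPM) stayed within 2-fold. Of 9 lysosome-handling genes Cd63, a lysosomal tetraspanin, was higher (315 and 862 CPM) and Gpnmb lower (90.1 and 45.0 CPM). Of 6 macrophage genes Lyz2 was lower (4689 and 415 CPM), and of 3 other galectins Lgals2 was higher, from 2 and 18 UMIs. Over all 13591 genes of the class 5.88% were past the fold upward and 6.06% downward, with a median log2 ratio of -0.03, and the libraries drew on different tSC-like clusters as given above.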

How the data were processed

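Per the file headers, the authors made UMI counts per gene and cell with Cell Ranger 7.1.0, and the submitters' processing notes list mm10 and Seurat 4.30. The deposited matrices hold these raw counts for 32285 genes, and 0 were named for GFP. The study's methods name other releases and tools that remove free RNA and doublets, which were not used here. The classes were rebuilt, and a value may differ from the study's for that reason.

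Cells with more than 200 genes and under 10% mitochondrial UMIs were kept (Python 3.11.15, scipy 1.17.1), doublets were scored against simulated ones at 0.8% per 1000 cells (1.62% to 5.82% of cells removed), and 2000 variable genes without the members gave 30 components and Leiden clusters at resolution 1 (leidenalg 0.10.2, igraph 0.11.9). Naming rules were set after a first look. UMIs were summed per class and library, given as CPM (20 cells or more), with exact Poisson, Clopper-Pearson and conditional binomial 95% intervals. UMIs are molecules counted once, and intervals and floors (3 UMIs) cover counting error only. Shares were taken after thinning to 1000 UMIs. Ratios need 20 UMIs over both libraries, and 2-fold is the limit. Named genes were the 6 members, partner-list genes past 2-fold (at most 3 per list and direction) with Mgat5 and St6gal1, and the 3 genes most correlated with each member among those with 50 CPM in some class, and others named were chosen after their values were seen. The intervals and thinning were tested on simulated data. The members and lists were chosen with earlier results of these data known. There were 12 planned and 5 added alternatives. Values of 1 marker gene are not reported here.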

Additional observations from a re-analysis of the deposited data

Results flagged for a closer look

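Of the pairs of member and class, 3 had intervals on opposite sides of no difference in the GFP+ and GFP- sorts. Lgals1 in smooth muscle-like cells had a log2 ratio, Sod1KO over WT, of 0.23 in GFP+ and -0.17 in GFP-. Lgals3 in endothelial-like cells had 0.62 and -0.24, and Lgals8 in the same class 0.34 and -0.19. Each sort has 1 library per genotype, so the difference between sorts was not tested, and the sorts drew different numbers of cells (305 and 303 endothelial-like cells in GFP+, 492 and 1605 in GFP-).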

How the results depend on the processing

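Of 1294 values under 17 alternatives, 1158 stayed within the counting interval of the reported log2 ratio, 132 moved out of it and 4 changed sign. No paired analysis was possible because each group is 1 library with no replicate number to pair, and for the same reason no replicate could be left out. Lgals3 in mSC-like cells (4.36) was -0.19 with over 500 genes and under 5% mitochondrial UMIs per cell, a filter that removes the cell with 224 UMIs. It was 6.76 with 5% free RNA subtracted, 2.50 as a mean of per-cell CPM, 1.28 without the 1% of cells with most UMIs, 0.69 without the top cell and 0.62 without subcluster 5. Lgals3 in tSC-like cells (3.38) was -0.03 without clusters over 80% from 1 library. This leaves out clusters 7 and 30, so the value is the ratio within cluster 11 given above. Lgals3 in tSC-like cells was 3.12 under the stricter filter, 3.68 with free RNA subtracted and 2.16 as a per-cell mean. It was 2.52 without the top 1% of cells and 0.67 without subcluster 5. It was 1.06 without cells carrying any macrophage marker UMI, 2.89 where Lyz2 was not counted among those markers, and 2.97 without cells with a keratinocyte marker UMI. Lgals1 in tSC-like cells (1.54) was 1.21 with doublets put back, 1.78 with free RNA subtracted and 1.31 as a per-cell mean. It was 1.64 without mitochondrial, globin and ribosomal genes in the total and 1.24 without subcluster 5. Without clusters over 80% from 1 library, where only cluster 11 remained, it was 0.65. It was 0.75 without cells carrying any macrophage marker UMI, Lyz2 included, and 1.48 where Lyz2 was not counted among those markers. Lgals1 in mSC-like cells (-0.23) was -0.18 without the mitochondrial, globin and ribosomal genes and stayed between -0.27 and -0.18. Lgals7 in tSC-like cells (3.91) was -0.44 without the top 1% of cells, from few UMIs. It was -0.36 without cells carrying any macrophage marker UMI, Lyz2 included, also from few UMIs. Where Lyz2 was not counted among those markers it was 3.36 (1.40 to 6.46), from 2 and 36 UMIs. The count of pairs 2-fold higher was 6 to 11, and that of pairs 2-fold lower was 2 with free RNA subtracted and 1 each with classes taken from each cell's own markers, with per-cell means and without cells with a keratinocyte marker UMI. The settings that leave out cells with macrophage or keratinocyte markers, the top cell or subcluster 5 were chosen after seeing the data. Beyond the alternatives named, the cause was not tested.

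Limits are 1 library per genotype and sort from 4 pooled mice, so differences between mice cannot be told apart from genotype. GFP- comparisons of macrophage-like, mesenchymal-like and smooth muscle-like cells rest on 24 to 42 WT cells, and free RNA was not removed.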

Other observations

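Other galectin genes in the files were low except Lgalsl, which encodes a galectin-like protein without the usual sugar-binding residues. It was highest in smooth muscle-like cells, at 273 CPM in WT and 243 CPM in Sod1KO of the GFP+ sort, and 269 CPM and 251 CPM in the GFP- sort. Pericyte-like cells had 73.3 to 91.8 CPM. tSC-like cells had 92.8 CPM in WT and 58.5 CPM in Sod1KO, a log2 ratio of -0.67 (-0.83 to -0.50), in the direction opposite to Lgals1 and Lgals3 in the same class. Perineurial-like cells of the GFP+ sort had 55.8 CPM in WT and 19.7 CPM in Sod1KO, from 23 and 24 UMIs. Lgals4, an intestinal galectin, was at 4.04 to 25.6 CPM in the named classes with at least 20 UMIs.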
